A study of Mus musculus with 6 samples.

Results

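The genes described are 10 mouse genes of the striated muscle thick filament, out of 25888 in the deposited expression table: the heavy chain genes Myh6, Myh7, Myh7b and Myh3, the light chain genes Myl2, Myl7, Myl3, Myl4 and Myl1, and the myosin-binding protein C gene Mybpc3. They were chosen by name as striated heavy and light chains and their cardiac binding protein, with earlier results of these data known. Other striated chains, such as Mylpf and Myl6b, were put in a separate list. All 10 were found by matching Ensembl identifiers to symbols. Their levels were measured by RNA sequencing in C57BL/6 mouse embryos at embryonic day 9.5, in dissected tissue labelled aDPW+OFT and pooled, where OFT is the outflow tract and aDPW is read here as the anterior dorsal pericardial wall. That wall contains progenitors of the second heart field, from which the outflow tract lengthens. The 3 Hand2 cKO libraries came from embryos with floxed Hand2 alleles and the transgene Mef2c-AHF-Cre (genotype Hand2flox/flox; Mef2c-AHF-Cre). This Cre is active in the anterior second heart field, so cells outside that lineage in the dissected tissue keep Hand2. The 3 control libraries are labelled only as controls, with no statement of their floxed or Cre alleles. Neither pool sizes nor litters are stated, and p-values therefore describe the spread among these 6 libraries, which may be technical. Where a fit is paired by replicate number, they describe the spread of the 3 differences within a number.

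Muscle myosin is a hexamer of a pair of heavy chains, each carrying an essential and a regulatory light chain. The heavy chain head hydrolyses ATP and pulls on actin, the light chains stiffen and tune its lever arm, and myosin-binding protein C fixes to the thick filament and modulates the heads. In the mature mouse heart Myh6, the alpha heavy chain, is the main form of both atria and ventricles, and Myh7, the beta heavy chain, is mainly the form of the fetal ventricle and of slow skeletal muscle. Among the light chains, Myl7 and Myl4 are the atrial forms and Myl2 and Myl3 the ventricular or slow forms. In the early heart tube these restrictions are incomplete, and Myl7 and Myl4 are transcribed along the whole tube.

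The genes lie apart except for one pair. Myh6 (ENSMUSG00000040752) and Myh7 (ENSMUSG00000053093) stand head to tail on the minus strand of chromosome 14 of GRCm38, from 54941921 to 54966927 and from 54970684 to 54994626, with 3756 bases between them. Myh7b lies on chromosome 2 from 155611212 to 155634307 and Mybpc3 on the same chromosome from 91118144 to 91136516, both on the plus strand. Myh3 and Myl4 lie on the plus strand of chromosome 11, from 67078300 to 67102291 and from 104550663 to 104595753, and Myl7 on its minus strand from 5896637 to 5898782. Myl2 lies on chromosome 5 from 122100951 to 122113472, Myl3 on chromosome 9 from 110741861 to 110769798, both on the plus strand, and Myl1 on the minus strand of chromosome 1 from 66924295 to 66945404.

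The start regions of 5 members are shown as examples, 4 of the 6 genes that were lower in the mutants in the fit with pairing and Myh6, which was not. They are the bases before the RefSeq transcription start on GRCm38.p6, leaving out bases that GENCODE M21 counts as exons of the gene, and capitals mark the M-CAT element CATTCC (bound by TEAD factors), the CArG box (bound by serum response factor) and the MEF2 site, each searched on both strands.
Myh7 (chr14:54994627-54994876, minus strand): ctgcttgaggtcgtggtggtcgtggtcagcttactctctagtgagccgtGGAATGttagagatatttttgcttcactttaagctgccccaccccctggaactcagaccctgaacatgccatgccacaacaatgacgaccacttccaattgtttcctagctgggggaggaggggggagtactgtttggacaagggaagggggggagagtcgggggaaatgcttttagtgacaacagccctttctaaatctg
Myh6 (chr14:54966642-54966857, minus strand): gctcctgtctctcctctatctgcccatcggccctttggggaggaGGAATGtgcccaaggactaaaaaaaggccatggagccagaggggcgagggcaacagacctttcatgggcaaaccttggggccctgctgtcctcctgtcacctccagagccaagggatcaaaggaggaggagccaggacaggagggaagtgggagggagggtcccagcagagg
Myl7 (chr11:5898783-5899032, minus strand): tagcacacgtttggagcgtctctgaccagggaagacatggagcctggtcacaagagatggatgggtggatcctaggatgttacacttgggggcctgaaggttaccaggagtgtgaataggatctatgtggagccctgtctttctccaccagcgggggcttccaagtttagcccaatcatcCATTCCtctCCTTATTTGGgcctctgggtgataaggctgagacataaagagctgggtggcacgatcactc
Myl3 (chr9:110763428-110763645, plus strand): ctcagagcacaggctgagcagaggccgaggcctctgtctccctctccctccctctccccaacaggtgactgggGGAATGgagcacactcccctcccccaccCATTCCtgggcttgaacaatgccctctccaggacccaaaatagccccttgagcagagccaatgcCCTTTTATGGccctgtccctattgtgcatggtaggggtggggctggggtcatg
Mybpc3 (chr2:91117894-91118143, plus strand): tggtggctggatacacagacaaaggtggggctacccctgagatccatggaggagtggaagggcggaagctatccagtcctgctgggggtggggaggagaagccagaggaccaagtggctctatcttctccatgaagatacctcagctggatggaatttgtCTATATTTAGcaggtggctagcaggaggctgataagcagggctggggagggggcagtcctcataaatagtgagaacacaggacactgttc

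The Myh7 and Myh6 windows each held 1 M-CAT element, 201 and 206 bases before the start. The Myl7 window held an M-CAT element at 70 and a CArG box at 61 bases before the start, without overlap. The Myl3 window held M-CAT elements at 177 and 149 and a CArG box at 85 bases. In the Mybpc3 window there was a MEF2 site at 90 bases and no match to the others. Of 32817 RefSeq start windows of 250 bases, 12.6% held an M-CAT element, 1.47% a CArG box and 2.92% a MEF2 site. The E-box CANNTG, the general site of basic helix-loop-helix factors such as Hand2, was present in the windows of all 5 genes and in 66.2% of all windows. The window of Myl4, which was also lower with pairing, held none of these motifs, and that of Myl1 held an M-CAT element at 80 bases. A further RefSeq start of Myh7 had a window with no M-CAT element. A letter match describes the window and is not a binding site. Promoter entries were found for all 10 members. Those of Myl2 lie 8227 and 7762 bases before the GENCODE start of that gene, and that of Myl3 lies 21817 bases inside the GENCODE gene. The E-box of Myh6, 13 bases before its start, falls outside the stretch printed.

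The cardiac heavy chain genes also carry a family of intronic microRNAs, shown here because they are transcribed with the genes compared. Capitals mark the seed, bases 2 to 8.
mmu-miR-208a-3p (host Myh6): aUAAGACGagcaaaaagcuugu
mmu-miR-208b-3p (host Myh7): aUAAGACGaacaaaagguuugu
mmu-miR-499-5p (host Myh7b): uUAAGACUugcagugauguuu

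The miR-208 pair share the whole seed of 7 bases, and miR-499 differs from it in the last base. All 3 lie within an intron of their host and on its strand. Mature microRNAs were not measured in these libraries, so only the host genes have values.

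The libraries had 17332929 to 22325117 reads that could be recovered from the deposited values, and no pair of libraries shared an identical nonzero value among 12650 genes. Hand2 fell to 34.6, 22.2 and 17.9 FPKM in Hand2 cKO libraries 1 to 3, against 116, 64.3 and 81.7 in controls 1 to 3 (FPKM, fragment counts scaled by exon length and library size), with a limma adjusted p of 0.109 unblocked and 0.00279 when blocked by replicate number. By Pearson r of log2(FPKM + 1), control 1 was closest to Hand2 cKO 1 (0.990). Control 2 was closest to Hand2 cKO 3 (0.992, against 0.989 with Hand2 cKO 2). Control 3 was closest to control 2 (0.984, against 0.982 with Hand2 cKO 3). The libraries numbered 1 in both groups had higher values for short genes. Genes with 1000 to 2000 exonic bases lay by a median of 0.19 (log2) above their group mean in Hand2 cKO 1 and 0.26 above it in control 1, and genes over 8000 bases lay at -0.13 and -0.16. Control 3 stood apart by transcripts of yolk sac endoderm, with a sum of 635 FPKM over 8 markers against 2.49 to 6.31 in the other 5 libraries.

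The tissue label was checked against defining markers. All 6 cardiomyocyte markers (Tnnt2, Actc1, Tnni1, Ryr2, Nkx2-5 and Slc8a1) were present in every library, with summed levels of 1597 to 2224 FPKM in Hand2 cKO and 2692 to 3868 FPKM in controls, and the groups did not overlap. Of these 6 markers, 3 did not overlap between groups, all lower in the mutants. Over all genes tested, 6.85% were lower without overlap and 5.44% higher. Actc1 made up most of each sum, and Nkx2-5 overlapped between groups (means of 229 and 250 FPKM in Hand2 cKO and controls). The 7 second heart field markers summed to 171 to 255 FPKM in Hand2 cKO and 116 to 148 FPKM in controls. Without overlap, 3 of them were higher and 1, Isl1, was lower (means of 15.8 and 20.0 FPKM in Hand2 cKO and controls). Tbx1 was the largest part of each sum (means of 117 and 65.1 FPKM in Hand2 cKO and controls). The 6 smooth muscle markers summed to 1114 to 1398 FPKM in Hand2 cKO and 1648 to 2465 FPKM in controls, and each of them was lower without overlap. Skeletal muscle was close to absent, with all 6 of its markers under 1 FPKM in every library and sums of 0.748 to 0.903 FPKM in Hand2 cKO and 0.5004 to 0.737 FPKM in controls. The 6 inflow and atrial markers summed to 31.0 to 40.9 FPKM in Hand2 cKO and 30.6 to 36.5 FPKM in controls, with overlap. Red cell markers summed to 3485 to 5087 FPKM in Hand2 cKO and 3343 to 7967 FPKM in controls. In pooled tissue, fewer cardiomyocytes and less RNA of a gene in each cardiomyocyte cannot be told apart.

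Among the 9 myosin genes that passed the filter of a mean of 1 FPKM, all had a negative log2 fold change, Hand2 cKO over control, with a median of -0.42 on the log2(FPKM + 1) scale against -0.0068 over all 12650 genes tested. The test without pairing (limma on log2(FPKM + 1), Benjamini-Hochberg adjusted over all genes) called none of the 9 at an adjusted p under 0.05, and 1, Myh7, had an unadjusted p under 0.05. Over all genes the same test called 0.150% lower and 0.0237% higher, and by unadjusted p 4.32% were lower and 2.60% higher. With the replicate number as a block, 6 of the 9 were lower (Myh7, Myl3, Myl4, Myl7, Myl1 and Mybpc3) and none was higher, where 3.70% of all genes were called lower and 1.42% higher. Myh6, Myh7b and Myl2 passed in neither test. With the block, 5, 3 and 3 members were lower when both libraries of number 1, 2 or 3 were left out, and number 3 holds the control with yolk sac transcripts. Myh7 and Myl3 were called in all 3 of these fits, Myl4 in those without number 1 or 2, Myl7 and Mybpc3 in that without number 1, and Myl1 in that without number 3. The labels do not state that the numbers pair the libraries; the pairing was read from correlated deviations. The summed levels of cardiomyocyte and of smooth muscle markers were lower in the same libraries, and their part in these counts was not tested.

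**Figure D1:**
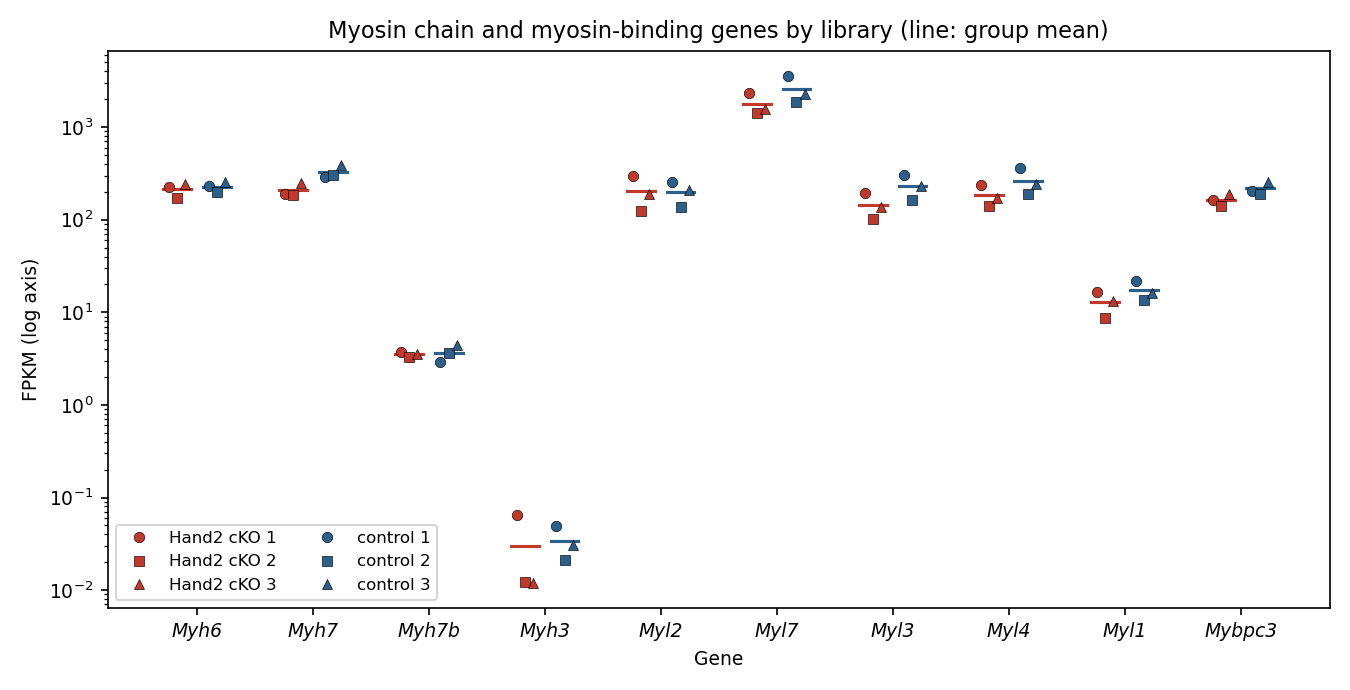
FPKM (log axis) of the 10 genes in each library, with Hand2 cKO in red to the left of control in blue, symbols for the replicate number and a line at the group mean. Myl7 stands highest in every library, between 1420.3 and 3559.8 FPKM, and Myh3 lowest, under 0.1 FPKM.

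The levels in FPKM, which divides reads by annotated exon length, spanned a wide range. Myl7 had the highest FPKM of the 10 genes in all 6 libraries. Its annotated length is 590 bases, against 4637 for Myl4, so the order depends on that length. In control 1 the recovered reads were 48873 for Myl7, 38721 for Myl4 and 57556 for Myh7. By FPKM, Myl7 was followed in controls by Myh7, Myl4, Myl3, Myh6, Mybpc3 and Myl2, and each of these neighbours overlapped with the next. In Hand2 cKO the order after Myl7 was Myh6, Myh7, Myl2, Myl4, Mybpc3 and Myl3, and here too each neighbour overlapped with the next. The mean of Myl2 was 204 FPKM in Hand2 cKO and 202 FPKM in controls, so its higher place there reflects lower means of other genes. Myl1, Myh7b and Myh3 came last in both groups, in that order, without overlap with their neighbours in either group.

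Of the member heavy chain genes tested, Myh7 alone passed with the block. It had 188, 187 and 252 FPKM in Hand2 cKO libraries 1 to 3, against 288, 307 and 388 FPKM in controls 1 to 3. The groups did not overlap. Of all genes tested, 6.85% were lower and 5.44% higher without overlap, and among the 9 members Myh7 alone was. The means were 209 ± 37.0 FPKM in Hand2 cKO and 328 ± 52.9 FPKM in controls (SD, n = 3 each), so the mutant mean was 63.8% of the control mean. The log2 fold change was -0.65, with a limma adjusted p of 0.429 without the block (SE 0.19) and 0.00653 with it (SE 0.06). Against the control of the same number, Myh7 was at 65.4%, 60.8% and 64.9%.

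Myh6, its neighbour on the chromosome, passed in neither test. It had 228, 169.9 and 245 FPKM in Hand2 cKO libraries, against 231, 197 and 257 FPKM in controls, and the groups overlapped over most of their range. The means were 214 ± 39.2 and 228 ± 30.1 FPKM (SD, n = 3 each), with a limma log2 fold change of -0.10 (adjusted p = 1.00 without the block and 0.410 with it). The 95% interval of the log2 fold change ran from -0.53 to 0.34 without the block and from -0.26 to 0.06 with it, and with array weights the value was -0.36.

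The other heavy chains were rare in this tissue. Myh7b, a slow heavy chain gene, had 3.75, 3.30 and 3.57 FPKM in Hand2 cKO libraries and 2.93, 3.61 and 4.44 FPKM in controls, with overlapping groups and a log2 fold change of -0.03 (95% interval -0.34 to 0.29 without the block and -0.29 to 0.24 with it). Myh3, the embryonic skeletal heavy chain, was under the filter and so outside the main test. Its FPKM values of 0.0647, 0.0124 and 0.0121 in Hand2 cKO and 0.0497, 0.0213 and 0.0307 in controls rest on 9, 2 and 2 reads and on 7, 4 and 5 reads. The groups overlapped (two-sided exact permutation p = 0.8), and no difference in Myh3 was detectable at this depth.

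**Figure D2:**
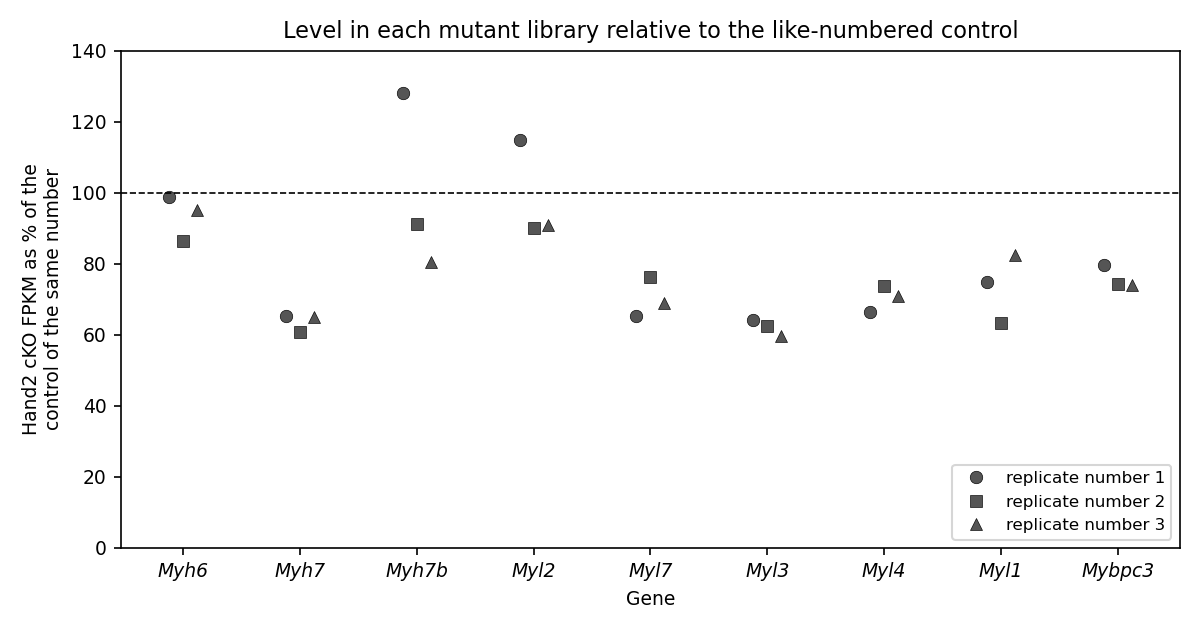
FPKM in each Hand2 cKO library as a percentage of the control of the same number (y axis) for the 9 genes tested, with a dashed line at equality. Myh7 and Myl3 lie close together, between 59.6% and 65.4%, Myh6 between 86.3% and 98.9%, and Myl2 and Myh7b on both sides of the line.

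Of the regulatory light chains, Myl7 passed with the block and Myl2 did not. Myl7, the atrial form and a gene of the whole early heart tube, had 2327, 1420.3 and 1571 FPKM in Hand2 cKO libraries, against 3559.8, 1862 and 2279 FPKM in controls. The groups overlapped, with number 1 the highest in both, and within each number the mutant was lower, at 65.4%, 76.3% and 68.9% of the control. The log2 fold change was -0.51 (limma adjusted p = 0.919 without the block and 0.0345 with it). Myl2, the ventricular form, had 297, 124 and 190.0 FPKM in Hand2 cKO libraries, against 259, 138 and 209 FPKM in controls, and was above its control in number 1 and below it in the other two. Its log2 fold change of -0.03 passed in neither test (95% interval -0.86 to 0.81 without the block and -0.24 to 0.18 with it), and its sign changed with the scaling. Without the block that interval includes the values of Myl7 and Myl3.

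The essential light chains were all lower with the block. Myl3, the ventricular and slow form, had 195, 101 and 136 FPKM in Hand2 cKO libraries and 305, 162 and 229 FPKM in controls. Its mutant levels were at 64.1%, 62.5% and 59.6% of the controls of the same number, and its log2 fold change was -0.69 (limma adjusted p = 0.748 without the block and 0.00515 with it). Myl4, the atrial form, had 238, 141 and 171 FPKM in Hand2 cKO libraries and 359, 191 and 241 FPKM in controls, with a log2 fold change of -0.51 (adjusted p = 0.848 without the block and 0.0137 with it). Both genes were highest in number 1 of either group and lower in the mutant of every number.

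Myl1, best known as the essential light chain of fast skeletal muscle, was much less abundant, at 16.4, 8.66 and 13.2 FPKM in Hand2 cKO libraries and 21.9, 13.7 and 16.1 FPKM in controls. Its log2 fold change was -0.42 (limma adjusted p = 0.872 without the block and 0.0384 with it), and its blocked call was lost when the length trend of each library was removed (adjusted p = 0.0781). Of the skeletal muscle regulators, Myod1, Myog and Myf6 were at 0.124 FPKM or less in every library. Myf5 was at 0.251, 0.503 and 0.316 FPKM in Hand2 cKO and 0.144, 0.386 and 0.161 FPKM in controls. All 5 light chain genes were highest in the library numbered 1 of each group, and neither Myh7 nor Mybpc3 was. That library had higher values for short genes. The annotated length of Myl4, 4637 bases, joins the exons of all its transcripts. The length of the Myl4 form expressed here was not measured. Genes of 4000 to 8000 annotated bases lay at a median log2 deviation of -0.04 in Hand2 cKO 1 and -0.05 in control 1. The part of the length trend in the light chain levels was not tested.

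Mybpc3, cardiac myosin-binding protein C, had 163, 141 and 191 FPKM in Hand2 cKO libraries, against 205, 190.1 and 258 FPKM in controls, with a single mutant value just above the lowest control. The log2 fold change was -0.39 (limma adjusted p = 0.748 without the block and 0.0223 with it), and the mutant was at 79.8%, 74.3% and 74.1% of the control of the same number.

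Ratios of isoforms, and of Mybpc3 to Myh6, within a library cancel its scaling, and 4 were compared. Each library gave 1 ratio of FPKM values, and the group means of log2 ratios were compared by a two-sided exact permutation test, whose smallest possible p with 3 against 3 libraries is 0.1. The Myh7 to Myh6 ratio was 0.826, 1.0995 and 1.03 in Hand2 cKO libraries 1 to 3, against 1.25, 1.56 and 1.51 in controls. The groups did not overlap, with means of 0.985 ± 0.14 and 1.44 ± 0.17 (SD, n = 3 each, exact p = 0.1). Put as a share, Myh7 made up 45.2% to 52.4% of the summed Myh6 and Myh7 FPKM in Hand2 cKO and 55.5% to 60.9% in controls. The within-number differences of the log2 ratio were -0.60, -0.51 and -0.55.

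The light chain ratios differed in sign. The Myl2 to Myl7 ratio was 0.128, 0.0872 and 0.121 in Hand2 cKO libraries, against 0.0726, 0.0739 and 0.0917 in controls. Hand2 cKO 2 lay below control 3, so the groups overlapped (exact permutation p = 0.2), although the mutant was higher within every number, by 0.81, 0.24 and 0.40 on the log2 scale. The Myl3 to Myl4 ratio was 0.820, 0.719 and 0.795 in Hand2 cKO and 0.849, 0.847 and 0.948 in controls, without overlap (exact permutation p = 0.1) and with a small difference of -0.18 on the log2 scale. The Mybpc3 to Myh6 ratio, not one of isoforms, was 0.715, 0.832 and 0.781 in Hand2 cKO and 0.887, 0.966 and 1.004 in controls, again without overlap (exact permutation p = 0.1). How often ratios of other gene pairs do not overlap between groups was not counted, for any of the 4 ratios. Adjusted over the 4 ratios, the p-values were 0.133, 0.2, 0.133 and 0.133 for Myh7 to Myh6, Myl2 to Myl7, Myl3 to Myl4 and Mybpc3 to Myh6, so none passed. The difference in the ratio of the ventricular to the atrial light chain was negative for the essential pair and positive for the regulatory pair.

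**Figure D3:**
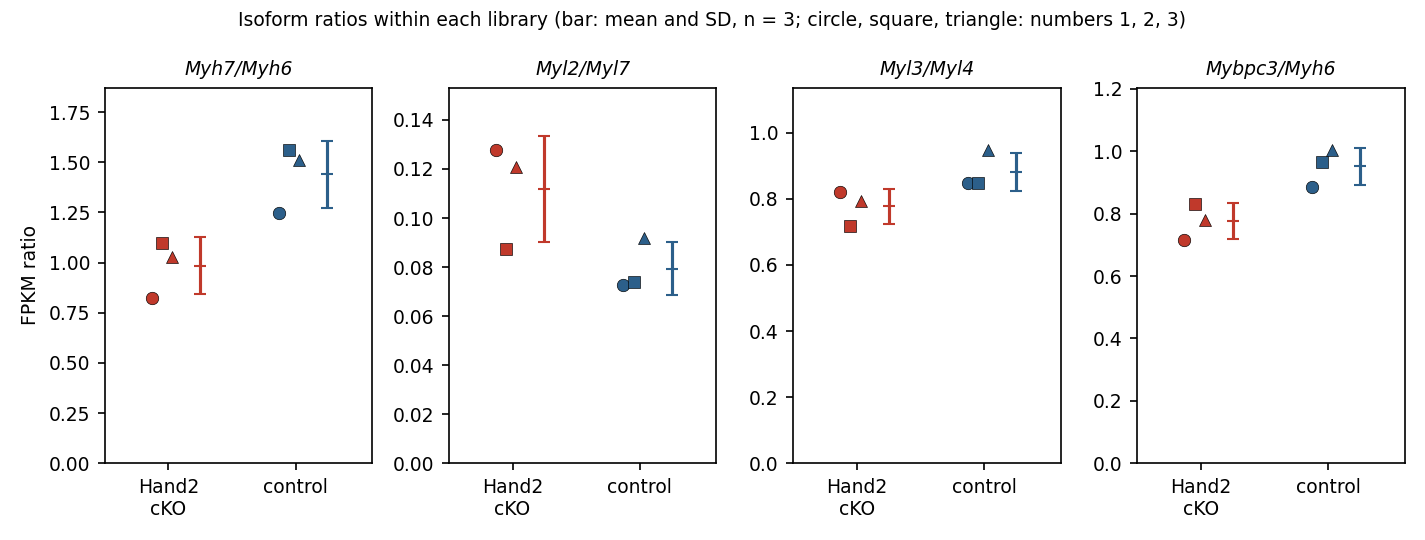
Ratio of FPKM values of 2 genes within each library (y axes starting at 0), Hand2 cKO in red to the left of control in blue, with the group mean and SD (n = 3). Myh7 to Myh6 lies at 0.826 to 1.0995 in Hand2 cKO and at 1.25 to 1.56 in controls, while Myl2 to Myl7 overlaps.

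The ratio of Myh7 to Myh6 carries a limit from their sequence. Of the distinct 100-base windows in the annotated Myh7 transcripts, 7.71% also occur in Myh6 transcripts, and 10.04% of those of Myh6 occur in Myh7. Of 50-base windows the shares are 15.6% and 20.2%. Neither the read length nor how reads that match both were assigned is stated, so their separate levels are uncertain. No other pair of the 10 genes shared a 50-base window. Myh7 also shares 523 exonic bases with Gm31251, 142 with Gm29015 and 484 with Mhrt, all on the opposite strand, and Myh6 shares 114 with Gm49130. Mhrt is an antisense RNA gene whose own level was 0.69 ± 0.29 FPKM in Hand2 cKO and 0.88 ± 0.35 FPKM in controls (SD, n = 3 each). No strand setting is given, so reads of shared bases cannot be told apart. Myl3 shares 95 bases with Pth1r (41.3 and 43.8 FPKM) and Myh7b shares 37 with Trpc4ap (21.1 and 21.3 FPKM, Hand2 cKO and control means).

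The myosin genes were also set against the thin filament, the actin side of the sarcomere. The level of each gene minus the mean log2 level of 14 thin filament genes was compared between groups by two-sided exact permutation tests over 9 genes. For Myh6, Myl2 and Myh7b this difference, Hand2 cKO minus control, was 0.58, 0.65 and 0.66 on the log2 scale, and the groups did not overlap (exact permutation p = 0.1 each, the smallest possible, and 0.3 after adjustment over the 9). On this measure 67.8% of all 12650 genes were higher without overlap and 0.198% lower, and the median difference over all genes was 0.67, since the thin filament mean itself differed by -0.68. The 3 genes thus lay close to the median of all genes. For Myh7 and Myl3 the difference was 0.03 and -0.0039 (exact permutation p = 0.9 and 1). Myl7, Myl4, Myl1 and Mybpc3 lay between, at 0.17, 0.17, 0.26 and 0.29, with overlapping groups. Over all genes, 3.70% were called lower with the block and 0.150% without it. Of the 14 thin filament genes, 11 were lower with the block and 1 without it, with a median of -0.75. Examples are the cardiac troponin T gene Tnnt2 (94.5 FPKM in Hand2 cKO and 166 in controls) and the skeletal actin gene Acta1 (119 and 306), both called with the block and not without it.

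Other genes of the thick filament were taken from a list of 15 partners, of which 9 passed the filter. None of the 9 was called without the block (5 by unadjusted p). With it 5 were lower and none higher, where 3.70% of all genes were called lower and 1.42% higher. The median log2 fold change of the 9 was -0.50. Smyd1, a methyltransferase needed for thick filament assembly, had 43.3, 39.0 and 59.0 FPKM in Hand2 cKO and 75.2, 79.8 and 102 in controls. Its groups did not overlap, and its log2 fold change was -0.86 (limma adjusted p = 0.251 without the block and 0.00402 with it). Unc45b, a myosin chaperone of striated muscle, had means of 28.5 and 41.3 FPKM in Hand2 cKO and controls, and Myom1, which links thick filaments at the M-band, 34.8 and 54.5. Mylk3, the cardiac kinase of the regulatory light chain, had 21.5 and 30.9 FPKM, and the myosin-binding protein H-like gene Mybphl 3.69 and 7.42. These 4 passed with the block and not without it, and none of them overlapped between groups. Ppp1r12b, a subunit of myosin phosphatase, had 2.35 and 3.06 FPKM and passed in neither test.

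**Figure D4:**
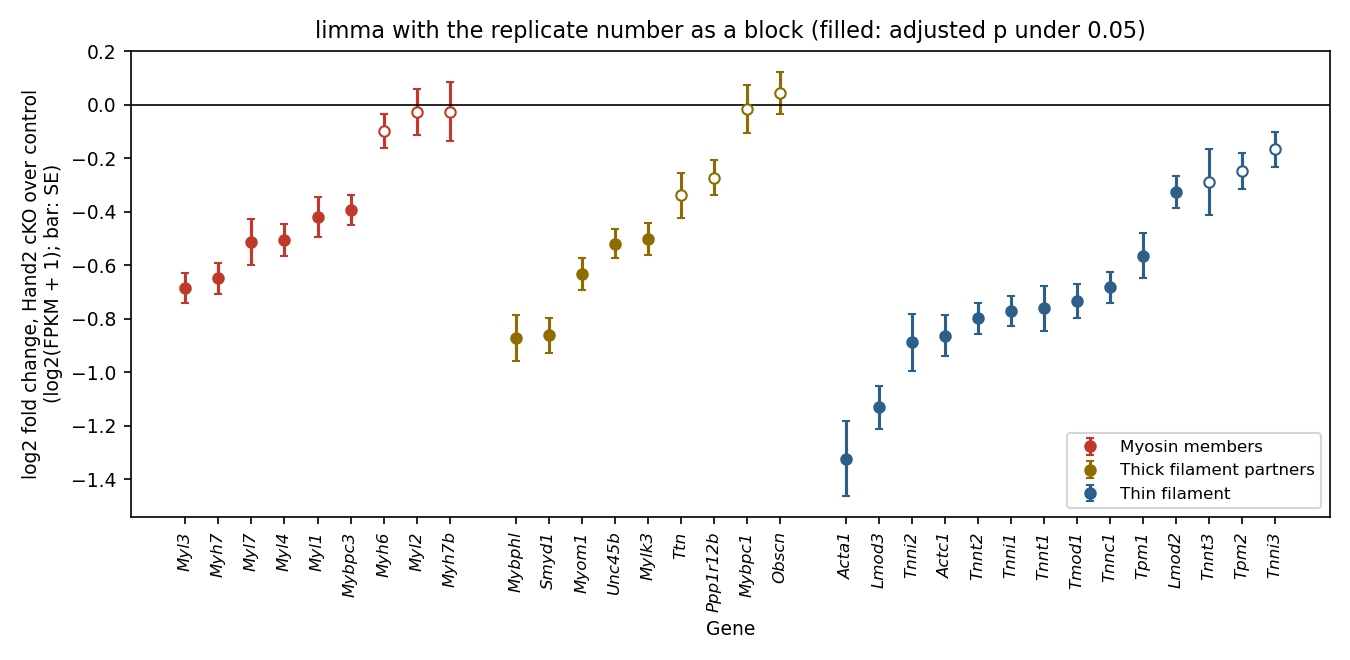
Log2 fold change, Hand2 cKO over control, with its SE (limma with the replicate block), for the 9 myosin genes, 9 thick filament partners and 14 thin filament genes tested, filled where the adjusted p is under 0.05. Myh6, Myl2 and Myh7b sit near 0, and the other myosin genes lie between -0.39 and -0.69.

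Other myosin genes were surveyed in the same way. Of 7 other striated myosin genes in the table only Mylpf and Myl6b passed the filter. Mylpf, the fast skeletal regulatory light chain, had 9.22, 5.32 and 6.37 FPKM in Hand2 cKO and 16.4, 8.49 and 11.5 in controls, and fell with the block (log2 fold change -0.71, limma adjusted p = 0.603 without the block and 0.00541 with it). Myl6b had 10.3 and 10.7 FPKM on average and passed in neither test. Of 8 smooth and nonmuscle myosin genes tested, 3 were lower with the block, Myl9 (297 and 480 FPKM in Hand2 cKO and controls), Myl6 (687 and 918) and the nonmuscle heavy chain Myh10 (68.8 and 87.5). Over all genes, 3.70% were called lower with the block. None of the 8 passed without it, and their median was -0.16.

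Regulators of chamber identity, which are known to bear on which isoforms a chamber uses, were listed for comparison. Irx4, a ventricular factor of the mouse heart, had 15.3 FPKM in Hand2 cKO and 17.0 in controls, and Hey2, another ventricular factor, 10.4 and 11.4. Neither passed in either test, nor did Hey1 (28.9 and 26.1) or Tbx5 (3.22 and 3.25). Nr2f1 and Nr2f2, orphan nuclear receptors of atrial and of other mesodermal cells, had 18.0 and 11.1 FPKM and 8.82 and 6.03 FPKM in Hand2 cKO and controls, and both rose with the block (limma adjusted p = 0.0152 and 0.0148) and not without it. Hcn4, a pacemaker channel gene of the inflow and atrial marker list, had 6.23, 4.79 and 6.21 FPKM in Hand2 cKO and 11.2, 10.4 and 14.6 FPKM in controls. Hcn4 fell with the block (log2 fold change -0.95, limma adjusted p = 0.103 without the block and 0.00538 with it). That list thus had 2 genes higher and 1 lower of 4 tested with the block. Over all genes, 1.42% were called higher and 3.70% lower.

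The profiles of Myl7, Myl3, Myl4 and Myl1 correlated with each other at Pearson r of 0.93 to 0.99 (log2(FPKM + 1), 6 libraries), Myh7 and Mybpc3 at 0.94, and Myh7 and Myl2 at 0.03. These values are descriptions, and the libraries include number 1 with its higher values for short genes. The part of that length trend in these correlations was not tested. The genes outside the set with profiles closest to Myh7 were Cap2, Myo16 and Myom1 (r of 0.997 each), and those closest to Myl3 were Akr1b10, Tmem38a and Tnnc1 (0.999, 0.996 and 0.996). Closest to Myl7 were Tgfbi, Vps29 and Myl12a (0.999, 0.998 and 0.996), closest to Myl4 were Cd81, Hspb1 and Cox7a1 (0.997, 0.997 and 0.996), and closest to Mybpc3 were Serinc3, Smurf1 and Atp6v0e2 (0.995, 0.994 and 0.993). Myh6 was closest to Gdpd1, Fhl2 and Nipsnap2 (0.978, 0.975 and 0.972), and Myl2 to Aifm2 and Ube2e2 (0.985 and 0.983).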

How the data were processed

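Per the labels' protocols, Trizol RNA of pooled aDPW and OFT tissue went into NEBNext Ultra libraries. Samples were grouped by title into 3 Hand2 cKO and 3 control libraries. Expression was deposited as FPKM in a single table. Tools named in the submitters' processing notes are Cufflinks 2.2.1, STAR 2.5.1b and bcl2fastq 2.18, with mm8 as build. No annotation, strand setting or filter is stated there. The table has 25888 genes, 129 without a symbol in the reference name table, and 6480 listed at 0 in a library.

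Multiplied by GENCODE M21 (GRCm38) exon lengths, the deposited FPKM values were whole multiples of 1 step per library, so whole reads (within 0.02, or a few millionths for large counts) were recovered for 20493 genes (79.2%). Myh7 and Myh6 were not whole at their annotated 8616 and 6726 bases. For them a wide range of lengths was searched for the one that brought all libraries nearest to whole reads. A looser limit than 0.02 was allowed. The lengths found were 8586 and 6347 bases, so the reads given for Myh7 rest on a length chosen by its fit. Other genes have no read value here.

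The main test was limma 3.58.1 (R 4.3.3), two-sided, with trend, on log2(FPKM + 1) over 12650 genes (mean FPKM 1 or more), Benjamini-Hochberg adjusted at 0.05. Fold changes on this scale understate changes of low genes. Deviations of like-numbered libraries from their group means correlated at 0.73, 0.44 and 0.44, so the replicate number was also used as a block. Control 2 and Hand2 cKO 3 also correlated at 0.31, so the pairing of numbers 2 and 3 is less certain. Genes named are the 10 members, up to 6 of each list with the smallest p, and the 3 closest profiles per member, of which 1 is not reported here and those of Myl1 and Myh7b are left out. The members and lists were chosen with earlier results of these data known. Names given outside this rule were chosen after their values were seen.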

Additional observations from a re-analysis of the deposited data

How the results depend on the processing

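Over 21 other settings the median of the myosin genes tested stayed negative. Calls differed between fits with and without pairing. Of the 9 members tested (10 with no filter), 6 were called lower with the replicate block and 6 by voom on recovered reads with the replicate block. With the length trend removed and the block 5 were lower, with array weights 1 (Myh7), and without pairing 0 in each other setting. With the block and both libraries of number 1, 2 or 3 left out, 5, 3 and 3 members were lower. Thick filament partners lower were 0 of 9 in the main test. They were 5, 6, 5 and 5 in those same 4 settings, with 7 tested by voom and 9 in the others. Without number 1, 2 or 3 they were 6, 5 and 5 of 9. Over all 12650 genes tested, 3 were higher and 19 lower, against 180 and 468 with the block (1.42% and 3.70%). Of the same number of genes, array weights gave 193 and 349, and the length trend removed with the block 231 and 467. With the length trend removed alone the counts were 7 and 40. By voom with the block, 363 were higher and 651 lower of only 9066 genes tested. That is a larger share of genes than in limma with the block, while the member count was 6 in both. With no filter the counts were 5 and 3 of 25888 genes, and with equal sums 9 of 12679 were lower. With the block but without number 1, 2 or 3 they were 94 and 246 of 12665, 54 and 229 of 12635, and 80 and 210 of 12632. Leaving out 1 library gave 0 to 2 higher and 0 to 2 lower. Without Hand2 cKO replicate 2 no gene was called by limma (by unadjusted p, 176 higher and 311 lower). Length trend, voom and left-out pairs were added after seeing the data.

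Some uncalled members changed sign. Myl2 was at 0.044 under quantile normalization, 0.032 with equal sums, 0.017 with the length trend removed (with or without the block), and 0.032 and 0.025 in the blocked fit without number 2 or 3. Leaving out 1 library moved Myl2 between -0.34 and 0.28, Myh7b between -0.14 and 0.092 and Myh6 between -0.20 and 0.058. Array weights gave -0.42, -0.21 and -0.36 for Myl2, Myh7b and Myh6, none called. Myh7b was at 0.016 with equal sums, and at 0.013 and 0.087 in the blocked fit without number 2 or 3. The 4 ratios kept their direction in each setting tried. Paired by number, their exact sign-flip p was 0.25, the smallest possible. Why these values shift was not tested.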
